A study of Mus musculus with 8 samples.

Results

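Bglap3 and the genes beside it on mouse chromosome 3 were followed in whole pancreas with and without Daxx. The members are Bglap3, Pmf1, Smg5, Paqr6 and Slc25a44, 5 genes in all. Of these, 4 are among the 11789 genes of the table, and Paqr6 was not analysed here. With a minimum mean of 10 normalized counts, 3 of the 4 entered the test over all genes, Bglap3 only through its higher level in the Daxx-deleted libraries, and Pmf1 did not. Bglap3 was chosen by its measured difference between the 2 genotypes in these same libraries, so that difference is given as a description with no test. The other members were chosen for their position next to it, with the results of these libraries already known. The study sequenced total RNA of pancreas from mice aged 6 weeks, 4 wild type and 4 in which both Daxx alleles were floxed and Pdx1-Cre was present, written Daxxfl/flPdx1-CreTg in the labels and called Daxx deleted below. Each genotype had 2 females and 2 males according to the design text, and no label says which library came from which sex. Pdx1 drives Cre in pancreatic epithelial progenitors, which give rise to exocrine and islet cells, so that cells of other origin, such as vessels, fibroblasts and leukocytes, keep Daxx. The labels name no mice with the transgene alone or the floxed alleles alone, so Daxx loss, transgene and floxed alleles cannot be told apart.

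Osteocalcin is a small protein that osteoblasts secrete into bone, where residues modified by a vitamin K-dependent carboxylase bind calcium. The mouse genome carries a cluster of osteocalcin copies, Bglap, Bglap2 and Bglap3, of which Bglap and Bglap2 are the bone genes and Bglap3 is known from other tissues, kidney among them. Of the other members, Smg5 acts in nonsense-mediated decay, which removes messenger RNAs with premature stop codons. Pmf1 is a subunit of the MIS12 complex that links centromeres to spindle microtubules. Slc25a44 carries branched-chain amino acids into mitochondria, and Paqr6 is a membrane progestin receptor. Daxx is a histone chaperone that works with Atrx to place histone H3.3 at silent chromatin, repeats and endogenous retroviruses included.

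In the annotation (GENCODE M21, GRCm38) Bglap3 (ENSMUSG00000074489.9) lies on the minus strand of chromosome 3, from 88368616 to 88372743. Paqr6 (88364584 to 88368541, plus strand) ends 74 bases before the 3′ end of Bglap3, and Smg5 (ENSMUSG00000001415.10, 88336260 to 88362338, plus strand) lies beyond it, 6.3 kb from Bglap3. On the other side follow Bglap2 and Bglap, both on the minus strand, with the pseudogenes Gm21956 and Gm6821 between the copies. Next come Pmf1 (ENSMUSG00000028066.15, 88394143 to 88410331), 21.4 kb away, and Slc25a44 (ENSMUSG00000050144.13, 88410498 to 88425139), 37.8 kb away, both also on the minus strand. No annotated gene overlaps the span of Bglap3. Bglap and Bglap2 were not analysed here.

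The sequences before the starts of Bglap3 and Bglap are printed because the copies differ there. The RefSeq promoter table (GRCm38.p6) gives Bglap3 a far start at 88372741, a middle start at 88371479 and a near start at 88369831, and Bglap a start at 88384466. The 250 bases before the far start (chr3:88372742-88372991, minus strand), those before the near start (chr3:88369832-88370081, minus strand) and those before the start of Bglap (chr3:88384467-88384716, minus strand) read as follows, 5′ to 3′. Capitals mark the 150 bases that the far and near starts have in common.
Bglap3 far start: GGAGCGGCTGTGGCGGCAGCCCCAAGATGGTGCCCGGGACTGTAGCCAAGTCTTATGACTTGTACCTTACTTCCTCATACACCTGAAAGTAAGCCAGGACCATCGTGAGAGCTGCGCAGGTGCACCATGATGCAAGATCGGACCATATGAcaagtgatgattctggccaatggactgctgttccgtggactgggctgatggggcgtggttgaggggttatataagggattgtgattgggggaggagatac
Bglap3 near start: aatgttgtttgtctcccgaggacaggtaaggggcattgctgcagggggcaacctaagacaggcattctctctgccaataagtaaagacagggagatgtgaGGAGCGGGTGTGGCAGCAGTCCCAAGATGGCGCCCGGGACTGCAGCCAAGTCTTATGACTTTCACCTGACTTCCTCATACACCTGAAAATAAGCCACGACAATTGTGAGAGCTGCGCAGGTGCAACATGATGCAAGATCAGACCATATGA
Bglap start: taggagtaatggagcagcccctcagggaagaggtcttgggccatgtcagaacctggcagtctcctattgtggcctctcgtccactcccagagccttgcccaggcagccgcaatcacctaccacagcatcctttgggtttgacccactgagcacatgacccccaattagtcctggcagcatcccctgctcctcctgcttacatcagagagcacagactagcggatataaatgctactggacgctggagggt

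The 2 Bglap3 starts lie 2910 bases apart, and the capital stretches differ at 14 of 150 bases, an identity of 90.7%. Over the whole promoter entries, which run 50 bases past each start, the alignment covered 200 bases at 92% identity. No entry of Bglap3 aligned with that of Bglap. The far start matched promoter entries of 10 other genes and the near start 8 of the same 10, at 75% identity or more over at least 90 bases. Among 11928 promoter entries of listed genes, 17.5% matched another gene and 0.897% matched 10 or more. The middle start of Bglap3 and the entries of Smg5, Paqr6, Pmf1 and Bglap matched none. The letters TATAA, searched in the 50 bases before each start on the strand of the gene, stood before the far start of Bglap3 and before Bglap, and in 4.93% of all 32851 entries. These matches describe sequence and do not show which start was used.

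The body of Bglap3 is close to its copies and its first exons are not. In the transcript Bglap3-203, exons 1 to 3 (88372539 to 88372743, 88371374 to 88371479 and 88370128 to 88370363) are untranslated, and exons 4 to 7 hold the coding sequence. Exons 4 to 7 aligned with the Bglap2 transcript at 97.7% identity over 471 bases and with the Bglap transcript at 96.4% over 439 bases. Exact sharing was lower for longer stretches. Of all 75-base windows in exons 4 to 7, 14.1% occurred letter for letter in Bglap or Bglap2, against 4.99% of 100-base windows and 35.5% of 50-base windows. No window of these lengths in exons 1 to 3 occurred in a transcript of another gene. Read length and the handling of reads with several matches are unknown here, so how reads were split between the copies is uncertain.

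Bglap3 was low in every wild-type library and higher in every Daxx-deleted library. Values are normalized read counts, which are reads divided by a size factor for each library. Bglap3 stood at 7.93, 7.83, 10.7 and 13.3 in wild-type replicates 1 to 4, from 9, 6, 11 and 15 reads. In Daxx-deleted replicates 1 to 4 it stood at 43.4, 24.99, 63.5 and 104, from 42, 30, 61 and 99 reads. The lowest Daxx-deleted library was above the highest wild-type library, so the genotypes did not overlap. Of the 10468 genes tested, which had a mean normalized count of 10 or more, 0.831% had all 4 Daxx-deleted libraries above all 4 wild-type libraries. Since Bglap3 was picked for this contrast, nothing is read from its lack of overlap. The means were 9.94 ± 2.599 (SD, n = 4) in wild type and 59.0 ± 33.9 (SD, n = 4) in Daxx-deleted pancreas, a ratio of 5.93. Differences are given as log2(value + 1), a scale that makes changes of low genes look smaller than they are. For Bglap3 the difference was 2.30 ± 0.36 (SE; 95% interval 1.53 to 3.08). That interval does not allow for the choice of Bglap3 on this contrast and is no test of it. In whole tissue, more cells with the RNA and more RNA per cell cannot be told apart.

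**Figure D1:**
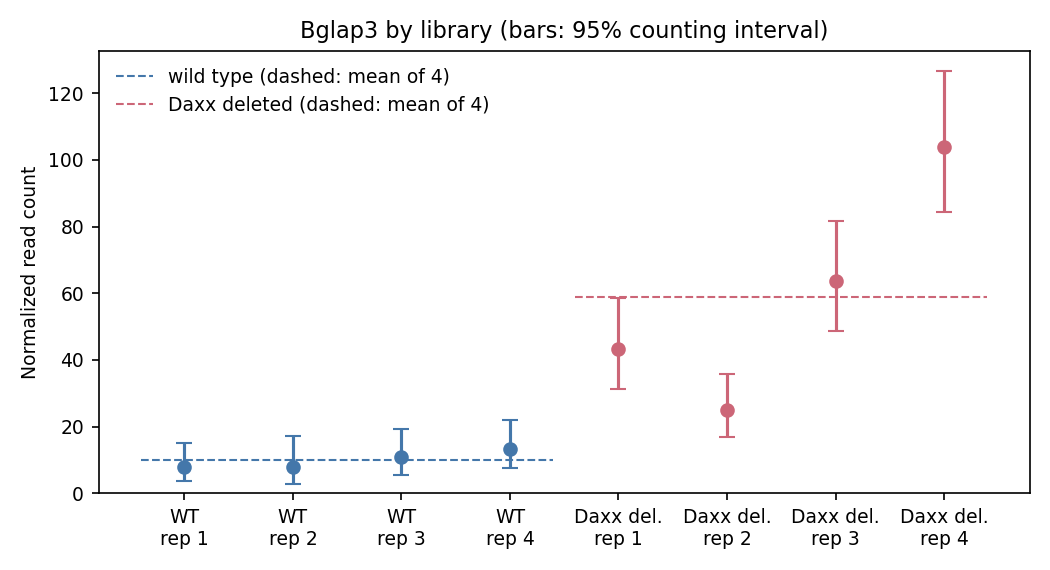
Bglap3 in each library. Points are normalized read counts, bars are 95% counting intervals from the reads of that library, and dashed lines are the means of the 4 wild-type and 4 Daxx-deleted libraries. The wild-type points lie between 7.83 and 13.3 and the Daxx-deleted points between 24.99 and 104.

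The Daxx-deleted libraries differed from each other by more than counting error. Their highest value was 4.16 times their lowest, and the exact Poisson 95% intervals of replicate 4 (84.5 to 127) and replicate 2 (16.9 to 35.7) lay far apart. The chi-square statistic of the reads against counting error was 20.8 per degree of freedom in Daxx-deleted libraries and 0.697 in wild type, where 1 would be counting error alone. The wild-type libraries were thus no more spread than their few reads allow, while the coefficient of variation in Daxx-deleted libraries was 57.5%. These intervals cover counting error only.

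Daxx itself, measured in the same libraries, had 39.7, 58.7, 46.7 and 45.2 normalized counts in wild-type replicates 1 to 4 and 26.8, 23.3, 29.2 and 32.5 in Daxx-deleted replicates 1 to 4. The genotypes did not overlap. By normalized counts within the Daxx-deleted group, replicate 4 was the highest in both Daxx and Bglap3 and replicate 2 the lowest in both. The Daxx values rested on 26, 28, 28 and 31 reads in Daxx-deleted replicates 1 to 4. By reads, replicate 1 was thus the lowest. The counting intervals of Daxx in replicate 2 (15.5 to 33.7) and replicate 4 (22.1 to 46.2) overlapped. Counting error alone could therefore give this order of Daxx, and a link with Bglap3 within the group was not tested. The deleted exons of Daxx are unknown here, and cells without Cre keep the gene.

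Within each genotype, Bglap3 was also ordered with the Y-linked genes. The genes Ddx3y, Eif2s3y, Kdm5d and Uty had a mean log2(value + 1) of 6.09 and 6.23 in wild-type replicates 3 and 4 and of 5.31 and 6.19 in Daxx-deleted replicates 3 and 4. In replicates 1 and 2 it was 0 and 0 in wild type and 0 and 0.44 in Daxx-deleted libraries. In both genotypes the 2 libraries with the higher Y-linked level had more Bglap3 than the 2 with the lower. This order held in 268 of 10468 genes, or 2.56%, and the reverse order in 2.34%. Smg5, Pmf1 and Slc25a44 had neither order. For Bglap3 in wild type the order rested on 9, 6, 11 and 15 reads in replicates 1 to 4. Their spread was no more than counting error, with a chi-square of 0.697 per degree of freedom. Fitting the Y-linked level beside genotype gave a Bglap3 difference of 2.32 on the log2 scale. This order was noticed after the values were seen, and the part of sex in the Bglap3 level was not tested.

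**Figure D2:**
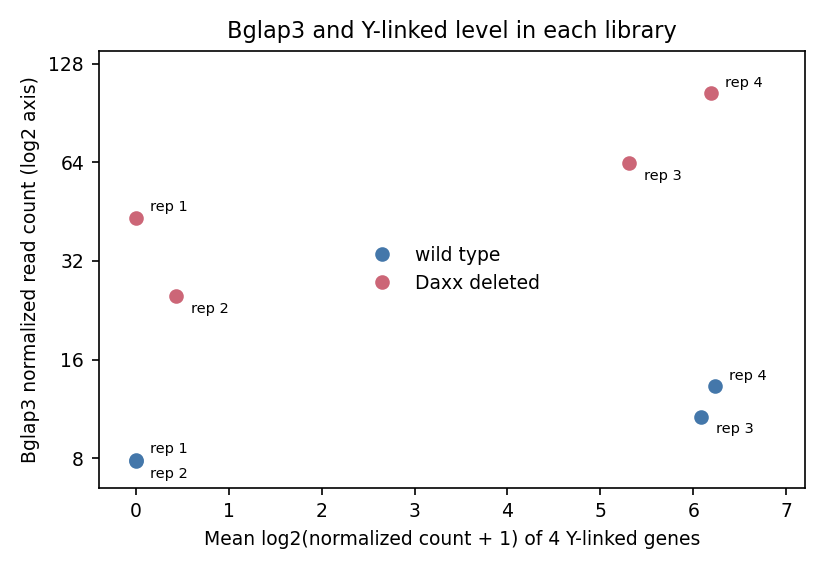
Bglap3 normalized read count (log2 axis) against the mean log2(normalized count + 1) of 4 Y-linked genes, 1 point per library. In each genotype, replicates 3 and 4, near 5 to 6 on the horizontal axis, lie above replicates 1 and 2, and all Daxx-deleted points lie above all wild-type points.

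Neither of the tested neighbours, Smg5 and Slc25a44, passed limma, which called 0 of 10468 genes. All 3 listed neighbours overlapped between genotypes, as did all but 1.87% of the tested genes. Smg5, which brings decay factors together on messenger RNAs, had 221, 284, 212 and 228 normalized counts in wild-type replicates 1 to 4 and 262, 243, 249.9 and 220.5 in Daxx-deleted replicates 1 to 4. The ranges overlapped almost fully, and Daxx-deleted replicate 4, the highest in Bglap3, was the lowest of its group in Smg5. The means were 236 ± 32.6 and 244 ± 17.5 (SD, n = 4 each). The log2 difference was 0.05 ± 0.13 (SE; 95% interval -0.22 to 0.32), with a limma adjusted p of 0.9997. The exact two-sided permutation test over 70 relabellings gave p = 0.629.

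Slc25a44, the mitochondrial carrier, had 84.6, 119, 86.7 and 90.3 normalized counts in wild-type replicates 1 to 4 and 101, 103, 109 and 107 in Daxx-deleted replicates 1 to 4. All Daxx-deleted libraries lay above 3 of the 4 wild-type libraries and below wild-type replicate 2, so the genotypes overlapped. The means were 95.1 ± 15.9 and 105 ± 3.68 (SD, n = 4 each). The log2 difference was 0.16 ± 0.15 (SE; 95% interval -0.16 to 0.47), with a limma adjusted p of 0.9997 and an exact permutation p of 0.171. The Daxx-deleted libraries were close together, with a coefficient of variation of 3.50%, in the libraries where Bglap3 varied most. The chi-square of Slc25a44 reads there was 0.127 per degree of freedom, less than counting error alone gives on average. Nothing is therefore read from this closeness.

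Pmf1, the kinetochore subunit, had a mean under 10 and so stayed outside the test over all genes. It had 9.69, 15.7, 6.82 and 10.6 normalized counts in wild-type replicates 1 to 4 and 7.23, 9.16, 7.29 and 9.45 in Daxx-deleted replicates 1 to 4, from 7 to 12 reads per library. Every Daxx-deleted value lay inside the wild-type range. The means were 10.7 ± 3.68 and 8.28 ± 1.19 (SD, n = 4 each), and the exact permutation p was 0.314. In a fit with no filter on low values its log2 difference was -0.29 ± 0.36 (SE; 95% interval -1.06 to 0.48).

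The 95% intervals of the neighbours had upper bounds of 1.25-fold for Smg5, 1.39-fold for Slc25a44 and 1.40-fold for Pmf1. The lower bounds were 0.86-fold for Smg5, 0.897-fold for Slc25a44 and, in the fit with no filter, 0.48-fold for Pmf1. With 4 libraries a group, changes in either direction within these intervals remained possible.

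**Figure D3:**
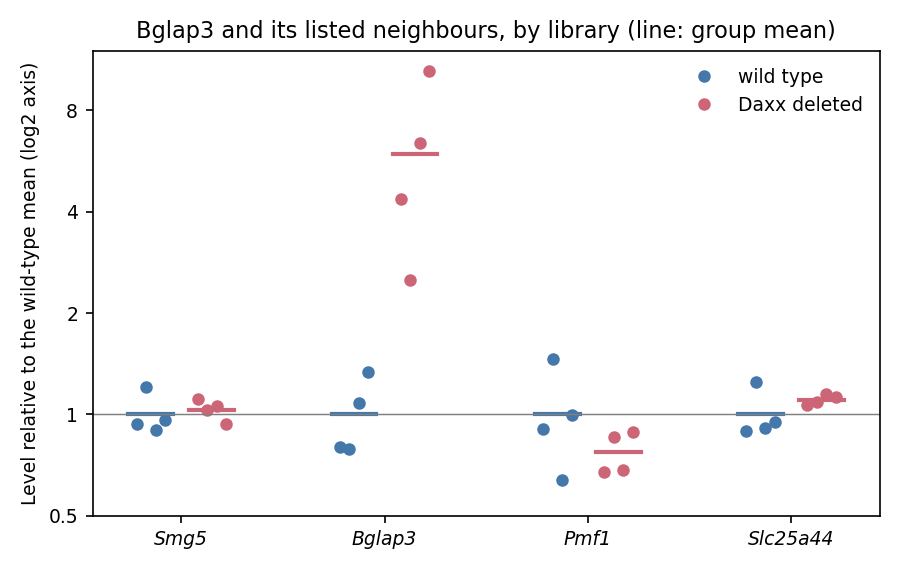
Level of each listed member in each library, divided by its wild-type mean (log2 axis), with a line at each group mean. Daxx-deleted points of Bglap3 lie well above 1, while those of Smg5, Pmf1 and Slc25a44 lie among the wild-type points.

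Levels can be set between genes once divided by exon length. Per kb of annotated exon, Smg5 was at 34.0 ± 4.69 normalized counts (wild type) and 35.1 ± 2.52 (Daxx deleted), and Slc25a44 had 26.6 ± 4.45 and 29.4 ± 1.03 (SD, n = 4). Bglap3 had 3.78 ± 0.99 and 22.4 ± 12.9 per kb over its 2.63 kb of exon, and Pmf1 had 2.63 ± 0.91 and 2.04 ± 0.29. In wild type the order per kb was therefore Smg5, Slc25a44, Bglap3 and Pmf1, with overlapping ranges within the upper pair and within the lower pair. In Daxx-deleted libraries Bglap3 ranged per kb from 9.51 to 39.5, across the values of Smg5 and Slc25a44 and above all of Pmf1. The exon length of Bglap3 counts every annotated exon, among them an exon of 1352 bases of another transcript that runs through the intron between exons 2 and 3 of Bglap3-203.

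No gene in the wider surroundings of Bglap3 passed the test either. The 10 nearest tested genes on each side, spanning 0.81 Mb and including Smg5 and Slc25a44, had log2 differences from -0.37 (Rrnad1) to 0.16 (Slc25a44). Their median was -0.03, against -0.01 over all 10468 genes, with 7 above 0 and 13 below. No gene of the 20 passed limma at an adjusted p under 0.05, none had an unadjusted p under 0.05, and in none did the genotypes fail to overlap. Over all genes limma called 0 of 10468 (0%), with 302 (2.88%) at an unadjusted p under 0.05, and 1.87% of genes did not overlap in either direction. edgeR called 0 (0%), with 299 unadjusted, and DESeq2 called 1 (0.00955%), with 219 unadjusted. That gene was Bglap3, which was chosen on this contrast, so the call is no test of it. The highest upper bound among the 20 was 0.75, for Tmem79, a gene of few reads. With 20 genes on each side, 40 genes in all, the median was -0.01 and again none passed limma. The largest log2 difference among the 40 was 0.67, with a 95% interval of -0.30 to 1.64, for Fam189b at 10.4 ± 6.45 and 16.9 ± 10.35 (SD, n = 4). Scamp3, which encodes a secretory carrier membrane protein, was the 1 gene with an unadjusted limma p under 0.05, at 63.6 ± 7.65 and 85.95 ± 10.39 with an adjusted p of 0.9997. Both were picked after their values were seen, and both overlapped between genotypes.

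The named genes on the side of Smg5 were Tmem79, a membrane protein of skin barrier formation, at 12.7 ± 1.20 (wild type) and 13.9 ± 1.21 (Daxx deleted), Glmp, a lysosomal membrane protein, at 164 ± 8.86 and 177 ± 31.4, and Cct3, a subunit of the cytosolic chaperonin, at 190 ± 16.8 and 171 ± 29.3. On the side of Slc25a44 the semaphorin gene Sema4a had 71.0 ± 22.0 and 65.4 ± 6.53, Lmna, which encodes lamins A and C, had 280 ± 21.1 and 277 ± 21.9, and the GTPase gene Rab25 had 59.9 ± 8.44 and 57.2 ± 7.70 (SD, n = 4 throughout). All 6 overlapped between genotypes. With libraries scaled to equal totals the median of the 20 genes was 0.09 and that of all genes 0.11, with 74.3% of all genes above 0 in place of 48.1%.

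**Figure D4:**
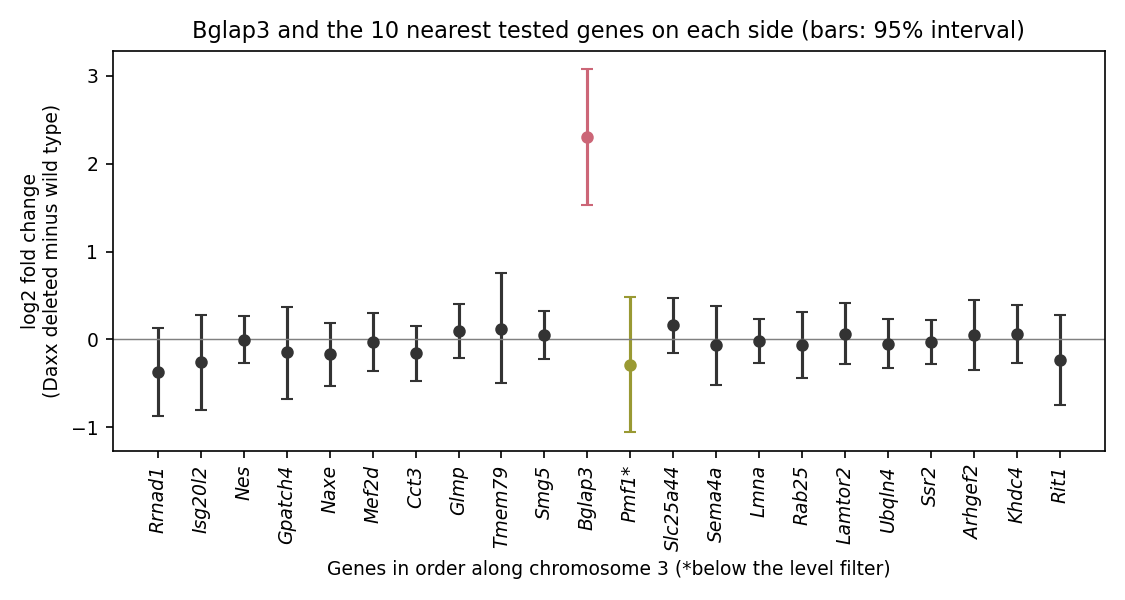
Log2 fold change (Daxx deleted minus wild type) of Bglap3, of Pmf1 and of the 10 nearest tested genes on each side, in order along chromosome 3, with 95% intervals from limma. Pmf1, marked with an asterisk, is from a fit with no filter on low values. Bglap3 stands at 2.30 and the 20 tested neighbours lie between -0.37 and 0.16. The interval of Bglap3 does not allow for its choice on this contrast and is no test of it.

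Genes that work with the members were described from lists. Limma called 0 of 10468 genes, so no gene in these lists could pass it. Among vitamin K cycle and Gla protein genes, 10 of 15 were tested, 5 above 0 and 5 below, with a median of 0.01. The carboxylase gene Ggcx was at 129 ± 14.2 (wild type) and 127.9 ± 8.24 (Daxx deleted), and Vkorc1l1, a vitamin K epoxide reductase, had 129 ± 15.99 and 130 ± 20.1. Of 16 osteoblast genes 5 were tested, 2 above 0 and 3 below, with a median of -0.01. Col1a1, Col1a2 and Spp1 among them are also in the stroma or ductal marker lists. The collagen genes Col1a1 (601 ± 203 and 701 ± 297) and Col1a2 (710 ± 152 and 718 ± 233) overlapped between genotypes. None of the tested genes in these lists had an unadjusted limma p under 0.05, against 2.88% of all tested genes.

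Nonsense-mediated decay, the pathway of Smg5, had 17 of 18 genes tested, 9 above 0 and 8 below, with a median of 0.03. The endonuclease gene Smg6 had 221 ± 21.7 and 200.5 ± 16.5. Of 14 kinetochore genes 5 were tested, 4 above 0 and 1 below, with a median of 0.28. Mis12, the namesake subunit of the complex of Pmf1, had 24.9 ± 3.39 and 31.5 ± 10.6, and Spc24 had 11.2 ± 1.29 and 14.9 ± 6.01. All 11 polyamine genes were tested, a pathway whose catabolic enzyme gene Sat1 is linked to Pmf1, with 3 above 0 and 8 below and a median of -0.08. Sat1 had 48.5 ± 5.34 and 46.7 ± 10.8, and the stress regulator gene Nfe2l2 had 72.7 ± 17.5 and 85.0 ± 13.7. Paox, a polyamine oxidase gene picked after its values were seen, was the 1 polyamine gene with an unadjusted limma p under 0.05. It had 46.2 ± 10.2 and 32.4 ± 6.91, with a limma adjusted p of 0.9997. Of all tested genes, 2.88% had an unadjusted limma p under 0.05.

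Of the progestin and adiponectin receptor family of Paqr6, 3 of 10 genes were tested, all below 0, with a median of -0.07. Adipor1 had 535 ± 21.3 and 526 ± 36.1, and Adipor2 had 281 ± 22.5 and 268 ± 26.3. With equal library totals the log2 difference was 0.10 for Adipor1 and 0.05 for Adipor2, so their direction depends on scaling. Branched-chain amino acid catabolism, which follows import by Slc25a44, had 18 of 19 genes tested, 9 above 0 and 9 below, with a median of 0.00. Its aminotransferase gene Bcat2 had 815 ± 139 and 870 ± 197, and Bckdha, of the dehydrogenase complex, had 444 ± 25.9 and 467 ± 70.9.

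None of the 5 genes most like Bglap3 in pattern lay on chromosome 3. By Pearson correlation of log2(value + 1) over the 8 libraries they were Zfyve19 on chromosome 2 (r = 0.949), Tapbp and Rasgrp3 on chromosome 17 (r = 0.944 and 0.933), Mylip on chromosome 13 (r = 0.929) and Vgll4 on chromosome 6 (r = 0.923). Because Bglap3 separates the genotypes, these values mostly describe that separation, and no test is attached. Tapbp encodes tapasin, which loads peptides onto MHC class I molecules, and Daxx also lies on chromosome 17. Of 10467 genes 11 had r of at least 0.9, and Slc25a44 ranked 1350 and Smg5 5203. With each genotype centred on its own mean, the genes most alike over the 8 libraries included Vwa8 on chromosome 14 (r = 0.972), Myo1d on chromosome 11 (r = 0.967) and Mageh1 on chromosome X (r = 0.943).

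The libraries held 7705789 to 10517508 reads over the listed genes. The tissue showed its label, with 6 of 6 acinar markers listed at summed levels of 1296225 to 1974824 normalized counts. Summed levels of ductal (6 of 6 listed), islet (8 of 8), stroma (9 of 9), immune (6 of 9), endothelial (5 of 5) and adipocyte markers (4 of 5) all overlapped between genotypes. Immune markers summed to 245 to 428 in wild type against 189 to 594, and adipocyte markers to 116.9 to 297.0 against 64.04 to 536.5.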

How the data were processed

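Stranded total RNA libraries were made from frozen whole pancreas, per the labels' protocols. The read counter, gene annotation and read length are unknown here. Alignment was with STAR 2.6.0b to GRCm38 and normalization with DESeq2, per the submitters' processing notes. The authors deposited a table of signal values, read counts divided by a size factor per library, for 11789 genes, and its columns were matched to libraries by title. Whole reads were recovered from the steps of the values, and 100% of values came out whole within a tolerance of 0.001. Genes averaging 10 or more normalized counts over the 8 libraries (10468) were tested with limma 3.58.1 (trend, R 4.3.3) on log2(value + 1), with Benjamini-Hochberg adjustment and a threshold of 0.05. edgeR 4.0.16 (quasi-likelihood) and DESeq2 1.42.0 on the recovered reads, which called 0 and 1 genes, were alternatives. Single members were also compared by exact two-sided permutation of the 4 against 4 libraries. Counting intervals are exact Poisson. Sequences come from RefSeq promoters (GRCm38.p6), were aligned with BLAST 2.17.0 and described beside GENCODE M21, which matched 11781 of the gene identifiers. The limma fit was tested on simulated counts, and the edgeR and DESeq2 fits were not.

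The members and gene lists were chosen with earlier results of these data known. Values are named for the members, the 3 nearest other tested genes on each side, the first 2 tested genes of each list, Daxx and the genes most alike Bglap3. Other genes named were chosen after their values were seen. Some genes that this rule names are not reported here. Each genotype had 4 mice per the design text, and replicates were numbered in accession order. Between 7705789 and 10517508 reads per library set the precision, which is low for Bglap3 and Pmf1.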

Additional observations from a re-analysis of the deposited data

Results flagged for a closer look

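Slc25a44 in wild-type replicate 2 stood apart from the rest of its group, at 119 normalized counts against 84.6 to 90.3 in the other libraries. Of 74 groups of 4 libraries checked, this was the 1 group with such a gap, and chance gives about 1 in 20, or 3.7 groups.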

How the results depend on the processing

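Under 18 other settings the count of genes called was 0 except for 5, in each of which it was 1 and the gene was Bglap3: equal library totals, robust moderation, the Y-linked level as covariate, DESeq2, and without Daxx-deleted replicate 2. Bglap3 was chosen on this contrast, so these calls are no test of it. Leaving out 1 library at a time gave counts of 0 to 1. The Bglap3 difference ran from 1.77 (pseudocount 8) to 2.64 on the log2 scale, and from 1.97 to 2.64 with 1 library left out. A minimum mean of 50 left it out. Smg5 ran from 0.00 to 0.17 and Slc25a44 from 0.11 to 0.28, neither called in any setting. The median of the 20 nearest genes was 0.09 with equal library totals and -0.08 to 0.00 with 1 library left out. Pmf1 had a fitted value only with no filter. Over 33 single genes, 579 of 584 values moved by less than 1 SD, and the 5 others were all with equal library totals. That scaling moved the median log2 difference of all genes from -0.01 to 0.11. Why the 2 scalings differ was not tested. Depth limits Bglap3 in wild type (6 to 15 reads) and Pmf1 (7 to 12 reads). No paired analysis was possible because the labels give no replicate numbers and the libraries were numbered in accession order.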

Other observations

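Sequence matching a promoter entry or the untranslated 5′ exons of Bglap3 was looked for in the promoter entries and transcripts of other annotated genes after the data had been seen. Matches on either strand were counted. With at least 50 aligned bases at 75% identity, 84 genes shared sequence and 14 of them were tested, 9 above 0 and 5 below. Their median log2 difference was 0.03, and they ran from -0.71 (Aplf) to 1.23 (Slc38a1). In 2 of the 14 all Daxx-deleted libraries lay above all wild-type libraries, against 0.831% of all tested genes, and in 0 of the 14 did all lie below. These were Pard3, a cell polarity gene, at 196 ± 11.9 (wild type) and 238 ± 27.5 (Daxx deleted), and Slc38a1, a glutamine transporter gene, at 15.9 ± 5.75 and 37.3 ± 8.51 (SD, n = 4). Slc38a1 was already known from earlier results of these libraries. With at least 70 aligned bases 14 genes were tested and both remained, and with at least 90 bases 11 were tested and Pard3 remained. The loss of Slc38a1 depends on the transcript compared, since it matched 89 bases of the exons of Bglap3 that hold an unspliced intron and 117 bases, at 81.2% identity, of the spliced exons 1 to 3.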
